A study of Mus musculus with 32 samples.

Results

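The genes described here are 33 genes of the cells that wrap blood vessels, chosen by name: 23 contractile genes of smooth muscle and 10 genes of pericytes, out of 20145 genes with a named probe on the arrays. All 33 had a probe. The contractile genes Lmod1 and Pln were well above background on 2 and 3 of the 32 arrays and were not tested, which left 21 contractile and 10 pericyte genes. The arrays measured RNA of orthotopic mammary tumours grown from 4T1-Luc cells, a mouse breast carcinoma line that carries luciferase, in female Balb/C mice that were 8 weeks old at injection and whose tumours grew for a week before dosing. Mice were dosed with sunitinib at 40 mg/kg, a drug that blocks VEGF, PDGF and related receptor kinases, or with the vehicle, PBS with DMSO. At a tumour size of 1300 mm3, cells selected with PECAM-1 beads (the EC fraction) and the digest that remained (the bulk fraction) were taken from 4 sunitinib-treated mice classed as resistant, 4 sunitinib-treated mice classed as sensitive up to day 8, and 4 vehicle mice. Bulk RNA alone was taken from 2 sunitinib-treated sensitive and 2 vehicle mice at 600 mm3, and from 2 sunitinib-treated sensitive and 2 vehicle mice at day 9. Every tumour came from the same cell line transplanted into the mammary fat pad, and each array stands for 1 mouse.

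Pericytes and vascular smooth muscle cells sit outside the endothelium and share an actin-based contractile apparatus. Smooth muscle genes are switched on by serum response factor (SRF) and its partner myocardin, which act through a short DNA element, the CArG box, near many of these genes. Pericytes of small vessels are recruited by PDGF-B from the endothelium through the receptor PDGFRB, and in tumours they are known to cover vessels loosely. Several contractile genes are shared with other cells: Acta2 and Tagln with myofibroblasts and myoepithelium, and Des, Casq2, Itga7 and Nexn with striated muscle. The pericyte gene Mcam is shared with endothelium. In RNA of mixed cells, fewer cells of a type and less RNA per cell cannot be told apart.

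Because the CArG box is the element most closely tied to the contractile genes, it was searched for in the RefSeq promoter windows of the GRCm38.p6 build, which run from 250 bases before to 50 bases after each transcription start. The box is its own reverse complement, so a search of 1 strand covers both. Windows were found for 17 of the 23 contractile and 7 of the 10 pericyte genes. An exact box was present in 1 of 19 contractile windows (5.26%), in 0 of 7 pericyte windows and in 535 of the 32851 windows of all genes (1.63%). A box with 1 of its 6 central bases changed was present in 2 of the contractile windows (10.5%), those of Acta2 and Myl9, against 8.5% of all windows, so near matches were about as common as in any promoter. The windows of Myl9 (chr2:156775214-156775513, plus strand), of Acta2 (chr19:34255324-34255623, minus strand) and of Rgs5 (chr1:169655251-169655550, plus strand) are shown as the contractile window that holds an exact box, a contractile window with near matches alone, and a pericyte window with neither. Capitals mark the exact box in Myl9 and the 2 near matches in Acta2; a window without capitals says only that these letters are not in it.
Myl9: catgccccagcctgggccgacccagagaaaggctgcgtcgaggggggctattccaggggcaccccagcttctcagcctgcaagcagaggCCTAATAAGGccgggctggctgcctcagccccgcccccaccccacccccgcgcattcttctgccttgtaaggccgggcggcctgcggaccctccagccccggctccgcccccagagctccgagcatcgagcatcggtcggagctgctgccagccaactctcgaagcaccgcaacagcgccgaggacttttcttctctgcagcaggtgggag
Acta2: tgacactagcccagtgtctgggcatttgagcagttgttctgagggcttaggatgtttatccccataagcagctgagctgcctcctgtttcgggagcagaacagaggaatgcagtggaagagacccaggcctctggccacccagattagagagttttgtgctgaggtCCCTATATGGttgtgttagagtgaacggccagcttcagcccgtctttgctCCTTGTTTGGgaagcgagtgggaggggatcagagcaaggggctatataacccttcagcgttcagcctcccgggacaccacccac
Rgs5: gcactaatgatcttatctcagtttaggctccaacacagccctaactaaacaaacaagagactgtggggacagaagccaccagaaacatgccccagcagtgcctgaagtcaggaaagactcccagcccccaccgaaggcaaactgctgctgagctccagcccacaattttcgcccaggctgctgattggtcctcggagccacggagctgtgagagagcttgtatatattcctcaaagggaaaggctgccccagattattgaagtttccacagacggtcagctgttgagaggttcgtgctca

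The quantity given below is a level, the log2 signal of a gene's brightest probe minus the 75th percentile of its array, so 0 is that percentile; levels of different genes are not compared. A gene was called where limma's Benjamini-Hochberg adjusted p over all genes tested was under 0.05. All 8 resistant arrays were on a slide of their own. On the EC arrays, 46.1% to 52.9% of probes passed the scanner's test for being well above background in resistant mice, against 79.9% to 86.4% in sensitive and 80.3% to 82.2% in vehicle mice. Resistance and slide are therefore confounded wherever resistant mice are compared with others, and cannot be told apart there. The bulk array of resistant mouse 2 stood apart from the other 3 resistant bulk arrays: 83.5% of its probes were well above background, against 55.3% to 58.8% in those 3, and its skeletal muscle, adipocyte and contractile list levels lay outside theirs. The contractile list level is a mean over 23 genes that did not move together. Casq2 was -1.27, against -7.77 to -7.67 in those 3, while Acta2 was 2.43, against 2.80 to 2.90, and Tagln 3.34, against 3.58 to 3.84. Lmod1 and Pln, which enter the mean, were not well above background there. The level of an endothelial list of 18 genes was 2.13 to 3.69 over the 12 EC arrays and at or under -0.58 on 11 of the 12 bulk arrays at 1300 mm3, with vehicle mouse 3 at 1.07. The defining pericyte markers Rgs5, Cspg4 and Abcc9 were well above background on all 24 arrays at 1300 mm3, and at least 9 of the 10 pericyte genes were on every array.

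Which of these genes were enriched with the PECAM-1-selected cells was read from the EC and bulk fractions of the same 12 mice. Pericyte genes were higher in EC: 9 of 10 rose and 0 fell, with a median difference of 1.44. Contractile genes split, with 11 of 21 higher, 3 lower and a median of 0.71. Over all 18285 genes tested the median was -0.06, and 52% were called, 22.3% as higher and 29.7% as lower in EC. The EC fraction was enriched in macrophage genes as well as endothelial ones: 8 of 8 macrophage genes were higher, with a median of 2.41, and 17 of 18 endothelial genes, with a median of 4.56. The part of macrophages in the differences given here was not tested. The level of Rgs5, a regulator of G-protein signalling that marks pericytes, was -0.06 to 2.76 with a median of 1.84 in EC, against -2.35 to 0.33 with a median of -0.82 in bulk. Rgs5 was higher in EC in 12 of 12 mice, by 2.60 on the log2 scale (SE 0.19, a 6.05-fold difference, limma adjusted p = 3.31e-06). Sncg, a synuclein found in vascular smooth muscle, had the largest difference of the 31 genes tested. Its levels were -0.08 to 2.21 (median 0.78) in EC and -3.21 to -1.60 (median -2.42) in bulk, with no overlap, and the difference was 3.34 (SE 0.12, adjusted p = 1.74e-07).

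Among the pericyte genes, Mcam, an adhesion molecule of endothelium and pericytes, was higher in EC by 2.08, the ATP-sensitive potassium channel pore Kcnj8 by 1.96 and the mitochondrial protein gene Higd1b by 1.76. Cspg4, the NG2 proteoglycan, differed less, by 0.54 (SE 0.20, adjusted p = 0.0367), and was higher in EC in 11 of 12 mice. Its call did not hold up well, being lost in 9 of the 12 fits that left out 1 mouse (0.44 to 0.72) and kept without resistant mouse 2, sensitive mouse 4 or vehicle mouse 3. Ndufa4l2 was the pericyte gene that did not pass. Among the contractile genes, the actin-bundling protein gene Synpo2 rose by 2.52, the smooth muscle myosin heavy chain Myh11 by 1.89, the myosin phosphatase inhibitor Ppp1r14a by 1.80, the vascular amine oxidase Aoc3 by 1.32, the myosin light chain kinase Mylk by 1.20 and the smooth muscle actin Acta2 by 0.71. The 3 contractile genes that were lower in EC, Smtn (-0.82), Tpm1 (-0.77) and Cald1 (-0.41), encode actin-binding proteins that many other cells make as well. Smoothelin (Smtn) was lower in EC in 12 of 12 mice. The Cald1 call was lost in 8 of the 12 fits that left out 1 mouse (-0.49 to -0.34) and kept without resistant mouse 1 or 2, sensitive mouse 5 or vehicle mouse 2.

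By treatment group, the median EC minus bulk difference of the pericyte genes was 1.00 in resistant mice and 1.97 in sensitive mice, against 1.35 in vehicle mice, and that of the 21 tested contractile genes was 0.56 in resistant mice and 1.16 in sensitive mice, against 0.33 in vehicle mice. For Rgs5 the within-mouse difference was 2.54, 1.13, 0.65 and 2.31 in the resistant mice and 4.49, 3.95, 2.99 and 3.99 in the sensitive mice, against 2.49, 1.54, 2.63 and 2.46 in the vehicle mice. All 4 sensitive mice lay above all others on this measure. For Myh11 it was 2.82, -2.18, 2.30 and 2.38 in the resistant mice and 1.73 to 2.20 in the sensitive mice, against 2.00 to 2.73 in the vehicle mice, so resistant mouse 2 was the only mouse with more Myh11 in bulk. The test of whether the sensitive or the resistant effect differed between EC and bulk called 0 of the 31 genes (0% of all genes for the sensitive effect and 0.268% for the resistant effect, 0.0109% higher and 0.257% lower). Only the resistant mice had both fractions on 1 slide. Within those 4 mice limma called 1 gene, Sncg (3.31, adjusted p = 0.0247), while Rgs5 differed by 1.66 (adjusted p = 0.112). The share of all genes called in that fit of 4 mice is not given here. The count of 1 can therefore not be read as a loss of enrichment. In sensitive and vehicle mice, slide and fraction cannot be told apart.

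**Figure D1:**
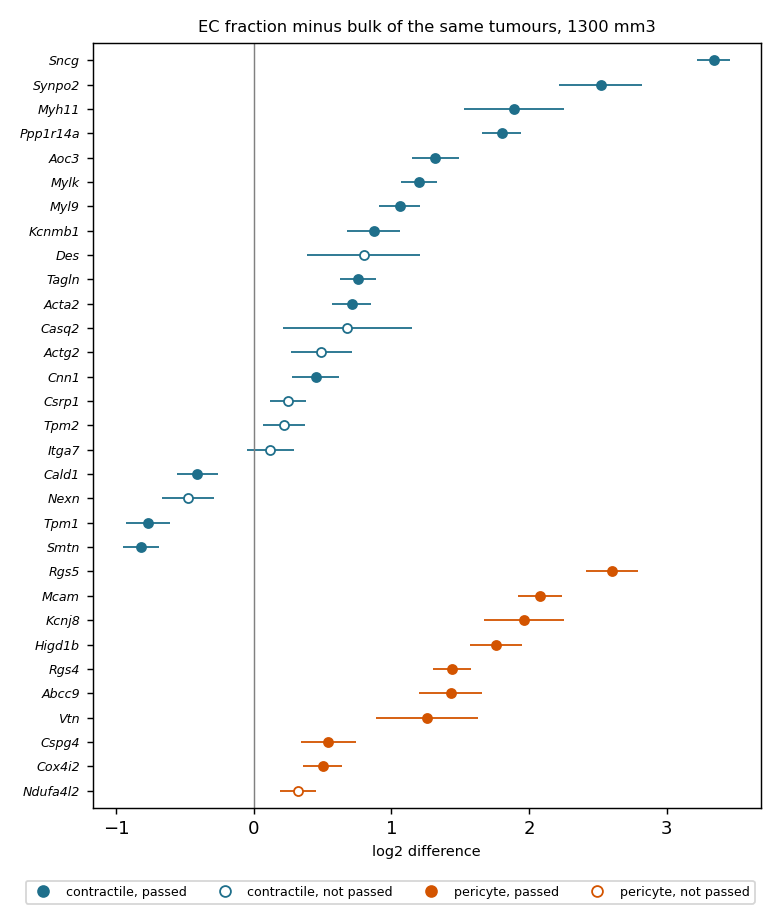
Log2 difference (EC minus bulk of the same 12 tumours at 1300 mm3, horizontal axis) of each of the 31 tested genes, with its standard error as the bar; filled points passed the test. The difference is 3.34 for Sncg and 2.60 for Rgs5, and all pericyte genes lie to the right of 0.

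The comparison of resistant with vehicle EC asks how these genes stood in the EC fraction of tumours classed as resistant to sunitinib. Pericyte genes were lower in resistant EC: 8 of 10 fell and 1, Mcam, rose, with a median of -1.16. Of the 21 contractile genes 6 fell and 0 rose, with a median of -0.71. Over all 17946 genes tested the median was 0.03 and 46.3% were called, 19.2% as higher and 27.1% as lower. The contractile count (6 of 21) was thus close to the background share of lower calls, and the pericyte count was above it. Over all genes the share of calls that were higher depended on the scaling, 41.4% here against 72.9% after normexp background correction, 50% after quantile scaling and 51.6% with the values the authors deposited, and normexp moved the median of all genes to 0.24.

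Among the pericyte genes, Rgs5 had levels of 1.82, -0.06, 0.14 and 1.03 in resistant EC, against 2.05, 1.87, 1.70 and 1.86 in vehicle EC. Resistant mouse 1 lay within the vehicle range and the other 3 below it. Rgs5 fell by 1.13 (SE 0.37, adjusted p = 0.0263), a call lost without resistant mouse 2 (-0.87) or 3 (-0.94) or vehicle mouse 2 (-1.07) or 5 (-1.14). Cspg4 had levels of -0.70, -2.54, -1.81 and -1.21 in resistant EC, against -0.32, -0.17, -0.15 and -0.39 in vehicle EC. The Cspg4 groups did not overlap, and it fell by 1.31 (SE 0.33, adjusted p = 0.00617). Abcc9, the regulatory subunit of the same potassium channel as Kcnj8, had levels of -0.04, -1.31, -1.42 and -0.53, against 0.39, 0.12, 0.69 and 0.29 in vehicle EC, without overlap. It fell by 1.20 (SE 0.36, adjusted p = 0.0178), a call lost without resistant mouse 2 or 3. Vitronectin (Vtn), a matrix and plasma protein that brain pericytes make, had levels of -3.36, -4.72, -4.36 and -3.97 in resistant EC, of which 2 were well above background, against -2.13, -2.27, -1.73 and -1.68 in vehicle EC. It fell by 2.15 (SE 0.30, adjusted p = 9.03e-05), a size that rests in part on values near background. Higd1b fell by 1.54, and the other 3 pericyte genes that passed fell by 1.03 to 1.18.

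Mcam went the other way, with levels of 6.22, 7.05, 7.28 and 7.2 in resistant EC, against 5.52, 5.02, 5.85 and 6.44 in vehicle EC, and rose by 1.23 (SE 0.36, adjusted p = 0.0153). The groups overlapped through resistant mouse 1 and vehicle mouse 5. A second, dimmer Mcam probe differed by -0.21 in the same comparison, and the call was lost after quantile scaling (0.84, adjusted p = 0.0718), so the direction of Mcam rests on 1 probe.

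Among the contractile genes, Acta2 had levels of 4.12, 3.30, 2.98 and 3.40 in resistant EC, against 4.16, 4.15, 3.71 and 4.01 in vehicle EC. Resistant mouse 1 lay among the vehicle mice, and the difference of -0.56 was not called (SE 0.27, adjusted p = 0.104). After quantile scaling it was -0.91 and called (adjusted p = 0.023). Myh11 had levels of -1.09, -2.98, -2.29 and -2.26 in resistant EC, against -1.03, -0.49, -1.52 and -0.22 in vehicle EC, and fell by 1.34 (SE 0.40, adjusted p = 0.0165) with an overlap through resistant mouse 1; the call was lost without vehicle mouse 5 (-1.14). Des, the intermediate filament desmin, had levels of -2.93, -3.83, -3.64 and -3.55 in resistant EC, against -2, -1.59, -1.85 and -0.82 in vehicle EC. The Des groups did not overlap, and it fell by 1.92 (SE 0.32, adjusted p = 0.000346). Mylk fell by 1.27 and Synpo2 by 1.26. Itga7, the alpha chain of a laminin receptor of muscle, fell by 1.02. Calsequestrin 2 (Casq2), a calcium store protein of cardiac and smooth muscle, was not well above background on any resistant EC array and was at least 1.48-fold lower there, with levels of -4.42 to -3.68 in vehicle EC (means -6.46 in resistant and -3.93 in vehicle EC, adjusted p = 1.96e-05). Normexp correction turned its difference to 0.06.

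**Figure D2:**
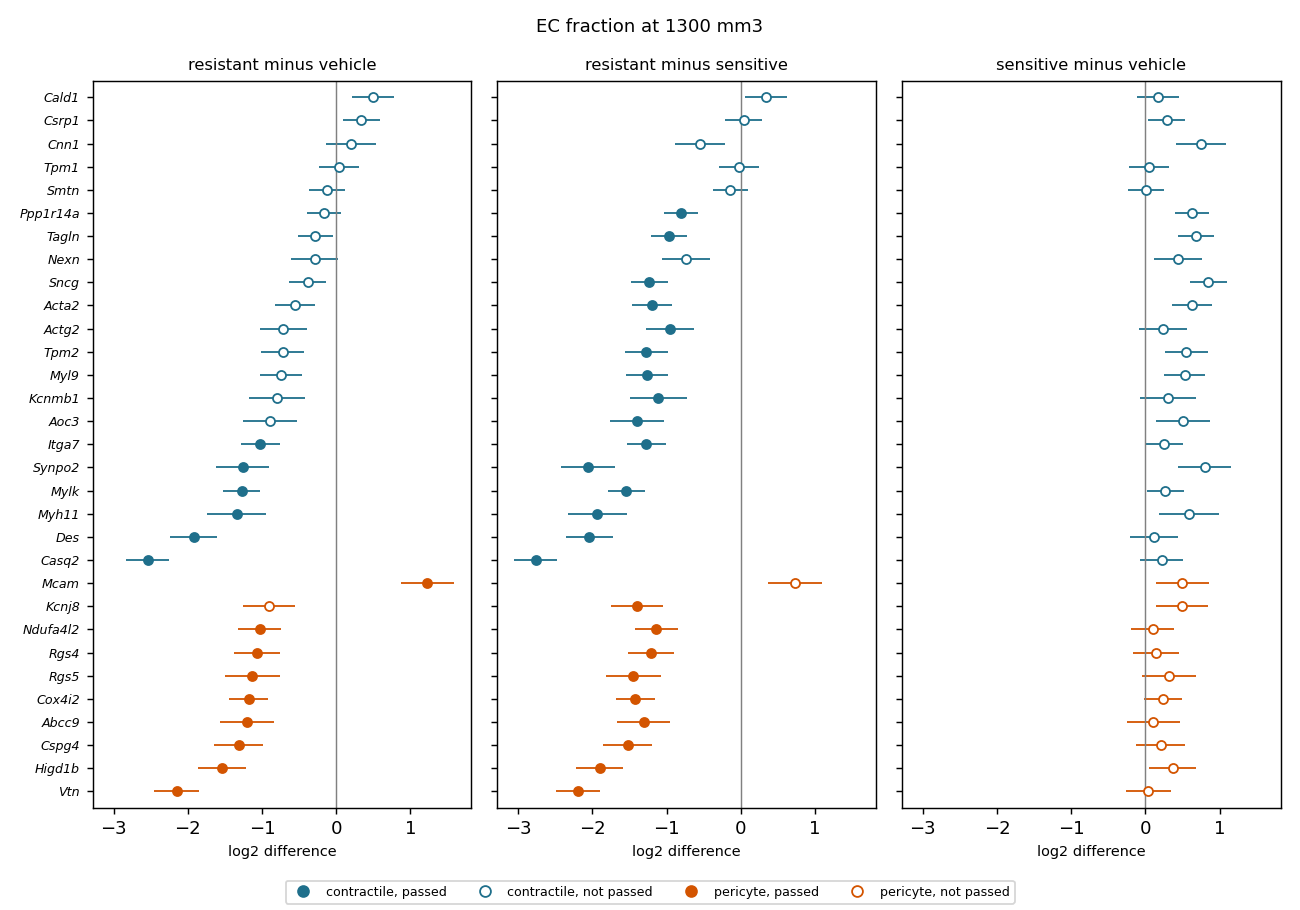
Log2 difference (horizontal axis) of each of the 31 tested genes, with its standard error as the bar, in resistant minus vehicle, resistant minus sensitive and sensitive minus vehicle EC (4 mice a group); filled points passed the test. Vtn and Casq2, which are near background in resistant EC, lie farthest left in the first panel, Mcam lies right of 0, and the last panel has no filled point and no point left of 0.

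Genes of other cell types moved in the same comparison. Of 17 skeletal muscle genes tested 10 fell and 0 rose, with a median of -1.94, and the list's level was -4.15 to -3.76 in resistant EC, against -3.10 to -1.83 in vehicle EC. Between 6 and 11 of its 18 genes were well above background in resistant EC, against 16 to 18 in vehicle EC. Of 10 adipocyte genes 7 fell, and the list's level was -4.43 to -3.75 in resistant EC, against -2.65 to -0.68 in vehicle EC. Between 2 and 5 of the 10 were well above background in resistant EC, against 10 in vehicle EC. Of 7 peripheral nerve genes 3 fell, with a median of -0.89 and list levels of -1.94 to -1.51 in resistant EC, against -1.06 to -0.41 in vehicle EC. All 8 macrophage genes had differences above 0, with a median of 1.04, and 2 rose; the list's level was 3.32 to 5.58 in resistant EC, against 2.88 to 4.43 in vehicle EC. The part of these cells in the falls of the contractile and pericyte genes, among them Des, Casq2 and Itga7, which striated muscle also makes, was not tested. Endothelial genes showed less: 2 of 18 fell, with a median of -0.08, beside the pericyte median of -1.16.

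Resistant EC was next compared with sensitive EC, from the treated mice classed as sensitive up to day 8. More of the genes passed here: 15 of 21 contractile and 9 of 10 pericyte genes fell and 0 rose, with medians of -1.19 and -1.41. Of all 17946 genes 46% were called, 17.2% as higher and 28.8% as lower, with a median of 0.03. Acta2 had levels of 4.12, 3.30, 2.98 and 3.40 in resistant EC, against 4.69, 4.24, 5.24 and 4.38 in sensitive EC, and fell by 1.19 without overlap (SE 0.27, adjusted p = 0.00331). Myh11 levels in sensitive EC were 0.38, -0.53, -0.07 and -0.67, all above the 4 resistant values given above. Des levels in sensitive EC were -1.24, -1.84, -0.81 and -1.91, again all above the resistant ones. Myh11 fell by 1.93 and Des by 2.04. Synpo2 fell by 2.06, Mylk by 1.54 and Aoc3 by 1.40, and Casq2 was at least 1.73-fold lower.

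Rgs5 had levels of 2.42, 1.93, 2.76 and 1.65 in sensitive EC, so resistant mouse 1, at 1.82, again lay within the range of the other group, and the difference was -1.45 (SE 0.37, adjusted p = 0.00763). Cspg4 levels were -0.17, -0.15, 0.45 and -0.32 in sensitive EC, above all 4 resistant values, and the difference was -1.52 (SE 0.33, adjusted p = 0.00259). Abcc9 levels were 0.70, 0.05, 1.35 and -0.17 in sensitive EC, with sensitive mouse 5 below resistant mouse 1. Vtn fell by 2.19 and Higd1b by 1.90. Of 18 endothelial genes, 15 were also lower in resistant than in sensitive EC, with a median of -0.88. Of the other cell types' genes, 10 of 17 skeletal muscle, 7 of 10 adipocyte and 4 of 7 peripheral nerve genes fell, and 1 of 8 macrophage genes rose, all 8 having differences above 0. Whether the 2 comparisons with resistant EC differ is the sensitive against vehicle comparison itself, and both share the resistant arrays.

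Between sensitive and vehicle EC no gene was called. All 31 genes had a difference above 0, as 53.6% of all genes did, with medians of 0.44 for contractile and 0.22 for pericyte genes, against 0.02 over all genes. The 31 genes were read on the same arrays and can move together, so this count is not 31 separate results. limma called 0 of 17946 genes (0%), while 981 had an unadjusted p under 0.05, among them 5 contractile and 0 pericyte genes. Sncg levels were 2.21, 1.22, 1.52 and 1.32 in sensitive EC, against 0.45, 0.83, 0.48 and 1.11 in vehicle EC, a difference of 0.85 without overlap (adjusted p = 0.671). Acta2 differed by 0.63, also without overlap (adjusted p = 0.866), Tagln, the actin-binding protein transgelin, by 0.68 (adjusted p = 0.775) and Ppp1r14a by 0.63 (adjusted p = 0.799). Myh11 (0.59), Rgs5 (0.32) and Cspg4 (0.21) overlapped between the groups. All 18 endothelial genes also had differences above 0, with a median of 0.86, and 0 were called.

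**Figure D3:**
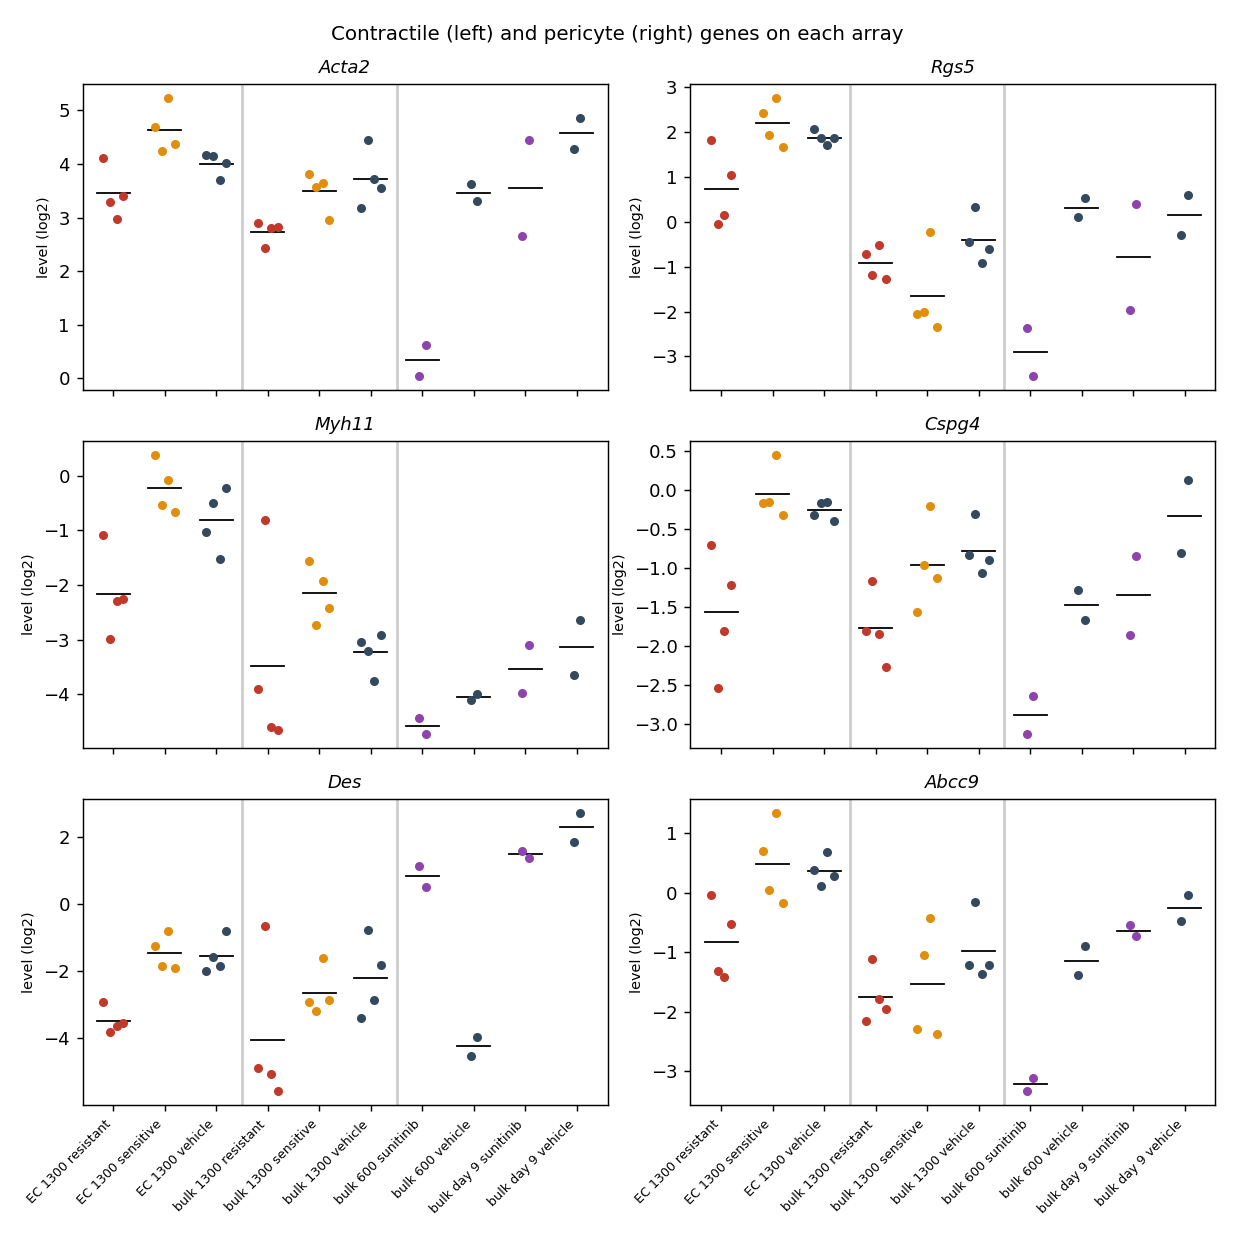
Levels of Acta2, Myh11, Des, Rgs5, Cspg4 and Abcc9 on each array (points, log2 relative to the array's 75th percentile) by group, with the group mean as a line. In EC the resistant values are mostly the lowest, and in bulk at 1300 mm3 resistant mouse 2 sits far above the other resistant mice for Myh11 and Des.

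In bulk tissue at 1300 mm3 few of the genes passed. Of all 16972 genes tested, 8.02% were called between resistant and vehicle bulk (2.1% higher and 5.92% lower), and 2 of the 31 genes were among them. Cox4i2, an oxygen-responsive subunit of cytochrome c oxidase that is enriched in pericytes, had levels of -1.49, -1.86, -1.48 and -1.72 in resistant bulk, against 0.44, 0.16, 0.07 and 0.08 in vehicle bulk. It fell by 1.82 without overlap (SE 0.16, a 3.53-fold difference, adjusted p = 7.62e-05). Mcam levels were 5.06, 4.88, 5.43 and 5.12 in resistant bulk, against 3.62, 3.98, 3.78 and 3.35 in vehicle bulk. It rose by 1.44 without overlap (SE 0.32, adjusted p = 0.0201), while its dimmer probe differed by -0.27. The Mcam call was lost without resistant mouse 1, 3 or 4 or vehicle mouse 2 or 5 (1.33 to 1.54 over all 12 such fits), and that of Cox4i2 in 0 of 12. Acta2 levels were 2.90, 2.43, 2.80 and 2.82 in resistant bulk, against 3.18, 4.45, 3.72 and 3.55 in vehicle bulk, a difference of -0.99 that just missed the threshold (SE 0.27, adjusted p = 0.0523). Cspg4 levels were -1.80, -1.16, -1.84 and -2.26 in resistant bulk, against -0.83, -0.31, -1.06 and -0.89 in vehicle bulk, which did not overlap (-1, adjusted p = 0.0812).

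Resistant mouse 2 decided much of this. Its bulk Myh11 level was -0.80, against -3.91, -4.59 and -4.65 in the other resistant mice and -3.04, -3.21, -3.75 and -2.91 in vehicle bulk. Its Des level was -0.65, against -4.90, -5.07 and -5.58 in the other resistant mice and -3.41, -0.78, -2.85 and -1.83 in vehicle bulk. Its skeletal muscle list stood at -1.44, against -4.01 to -3.85 in the other 3, and its adipocyte list at -1.16, against -5.07 to -4.79. Without this mouse, 13 of the 31 genes were called against vehicle bulk (1 contractile gene higher and 6 lower, 1 pericyte gene higher and 5 lower), and 32.6% of all genes (10.6% higher and 21.9% lower), so the 11 lower calls are to be read against that background. Without resistant mouse 1, 3 or 4 or vehicle mouse 5 the count was 1. Among the lower calls without resistant mouse 2 were Des (-2.97), Acta2 (-0.88, adjusted p = 0.0361), Myh11 (-1.15), Vtn (-2.28) and Cspg4 (-1.20). Rgs5 was not called with or without the mouse (-0.51 and -0.42), its levels being -0.71, -1.19, -0.51 and -1.28 in resistant bulk, against -0.45, 0.33, -0.93 and -0.60 in vehicle bulk. Abcc9 levels were -2.16, -1.12, -1.78 and -1.95 in resistant bulk, against -1.22, -0.15, -1.37 and -1.21 in vehicle bulk, and overlapped as well.

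Against sensitive bulk, 3 of the 31 genes were called, and 12.3% of all genes (3.32% higher and 8.97% lower). Cox4i2 fell by 1.85 (SE 0.16, adjusted p = 5.71e-05), with levels of 0.26, -0.08, 0.34 and 0.36 in sensitive bulk. Mcam rose by 1.33 (adjusted p = 0.0217), with 3.40, 4.52, 4.28 and 2.97 in sensitive bulk and with its dimmer probe at 0.46. Caldesmon (Cald1) had levels of 2.09, 1.43, 2.20 and 2.44 in resistant bulk, against 0.74, 1.23, 0.81 and 1.03 in sensitive bulk, and rose by 1.09 without overlap (SE 0.27, adjusted p = 0.0265). The call was lost without resistant mouse 1, 3 or 4 or sensitive mouse 2, 4 or 5 for Cald1 (0.95 to 1.29), and without resistant mouse 1, 3 or 4 or sensitive mouse 2 for Mcam (1.05 to 1.57). Without resistant mouse 2 the count was 11, with 1 contractile gene higher and 5 lower and 1 pericyte gene higher and 4 lower, against 37.7% of all genes (12.3% higher and 25.4% lower). It was 6 without vehicle mouse 3, and 1 without resistant mouse 1, 3 or 4 or sensitive mouse 2.

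Sensitive and vehicle bulk at 1300 mm3 showed no call. limma called 0 of 16972 genes (0%), 1101 had an unadjusted p under 0.05, and 11 of the 31 genes had a difference above 0, against 59.3% of all genes. Rgs5 levels were -2.06, -2.02, -0.23 and -2.35 in sensitive bulk, against -0.45, 0.33, -0.93 and -0.60 in vehicle bulk (-1.25, adjusted p = 0.69). Sensitive mouse 4 lay within the vehicle range, and the other 3 lay below it. Myh11 levels were -1.55, -2.73, -1.92 and -2.41 in sensitive bulk, all above the vehicle values (1.08), so the smooth muscle myosin and the pericyte marker pointed in opposite directions, neither passing the test. Acta2 was 3.82, 3.58, 3.64 and 2.96, and Cspg4 -1.56, -0.96, -0.20 and -1.12, in sensitive bulk, both overlapping vehicle bulk.

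**Figure D4:**
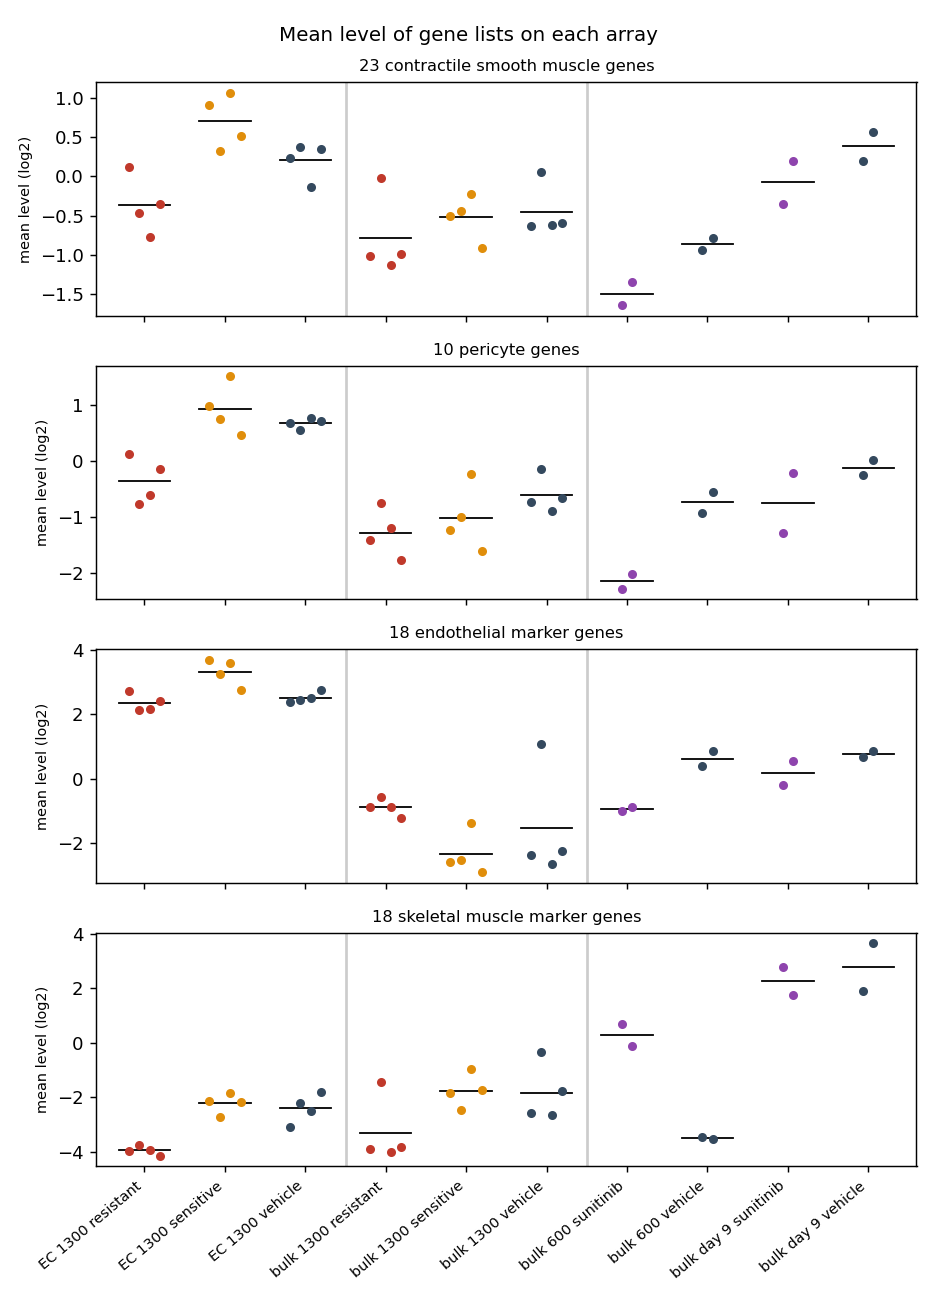
Level of the contractile, pericyte, endothelial and skeletal muscle lists on each array (points, the mean of the log2 levels of all the list's genes, dim ones included, relative to the array's 75th percentile) in the 10 groups, with the group mean as a line. Pericyte levels are -0.78 to 0.13 in resistant EC, 0.47 to 1.51 in sensitive EC and 0.55 to 0.76 in vehicle EC, and lowest, at -2.29 and -2.02, in sunitinib-treated bulk at 600 mm3.

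In the smaller tumours the 600 mm3 mice were set against the day 9 mice, with sunitinib and vehicle averaged. Of 21 contractile genes 8 fell and 0 rose, and of 10 pericyte genes 2 fell, with medians of -1.30 and -0.89, against 0.08 over all 17443 genes. Of all genes 4.37% were called, 1.6% as higher and 2.77% as lower. Des fell by 3.59, Casq2 by 3.40, the actin-binding calponin Cnn1 by 2.52, Aoc3 by 2.42, Tagln by 2.29 and Acta2 by 2.16 (adjusted p = 0.0033 to 0.0359). Vtn fell by 3.00 (adjusted p = 0.0479) and Abcc9 by 1.74 (adjusted p = 0.00895). With 1 mouse left out at a time, the calls of Acta2, Aoc3, Cnn1, Tagln and Vtn were lost in 4 to 6 of 8 fits, and those of Des, Casq2 and Abcc9 in 0.

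These averages join treatment arms that lay far apart. Cnn1 averaged -3.87 in sunitinib tumours at 600 mm3, against 0.40 in those of day 9, and -0.09 in vehicle tumours at 600 mm3, against 0.68 in those of day 9, so most of its fall lay in the sunitinib arm. Acta2 averaged 0.33 against 3.55 in the sunitinib arm and 3.46 against 4.57 in the vehicle arm. For Des it was the vehicle arm that carried the fall: it averaged 0.82 against 1.47 with sunitinib, and -4.24 against 2.28 with vehicle. Casq2 averaged -4.05 against -2.17 with sunitinib and -6.80 against -1.89 with vehicle, where 1 of the 2 mice at 600 mm3 was well above background. Of the 31 genes, the test of whether the arms differed called Des alone, as given with the day 9 tumours.

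Skeletal muscle genes were also lower at 600 mm3 than at day 9: 16 of 18 were called lower, with a median of -3.60, and the list's level was -0.11 to 0.67 in sunitinib and -3.54 to -3.47 in vehicle tumours at 600 mm3, against 1.76 to 2.76 and 1.91 to 3.65 at day 9. Of 13 fibroblast genes 12 had differences below 0, with a median of -1.59, and 2 were called lower; the list's level was 1.25 to 1.62 in sunitinib and 1.91 to 2.86 in vehicle tumours at 600 mm3, against 2.18 to 3.75 and 3.43 to 3.94 at day 9. The part of striated muscle in the falls of Des and Casq2, and of fibroblasts in those of Acta2 and Tagln, was not tested. The count of 10 genes rose without sunitinib day 9 mouse 1 and fell without vehicle day 9 mouse 2 or any 600 mm3 mouse. Each such fit leaves 1 mouse in a group, and the share of all genes called in it is not given here.

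Within the 600 mm3 tumours, sunitinib was set against vehicle with 2 mice a group, a comparison added after the values had been seen. The smooth muscle genes Actg2 and Cnn1 and the pericyte gene Abcc9 fell with sunitinib, and Des and Casq2 rose. The other 26 genes did not pass, and 1.67% of all genes were called (0.516% higher and 1.15% lower). Actg2, the enteric smooth muscle actin, had levels of -4.99 and -3.36 in sunitinib tumours, against 0.72 and 0.69 in vehicle tumours, and fell by 4.88 (SE 0.80, a 29.5-fold difference, adjusted p = 0.041). Cnn1 had levels of -4.11 and -3.63, against 0.05 and -0.22 in vehicle tumours, and fell by 3.78 (SE 0.51, adjusted p = 0.0288). Abcc9 had levels of -3.34 and -3.11, against -1.39 and -0.89 in vehicle tumours, and fell by 2.09 (SE 0.27, adjusted p = 0.0258). Acta2 had levels of 0.04 and 0.63 in sunitinib tumours, against 3.62 and 3.31 in vehicle tumours, a difference of -3.13 that just missed the threshold (SE 0.57, adjusted p = 0.0523). The count of 5 called genes rests on few mice: it rose without either sunitinib mouse of day 9, whose spread enters the test, and fell without any 600 mm3 mouse. Each such fit leaves 1 mouse in a group, and the share of all genes called in it is not given here. The Des call was lost without vehicle mouse 3 of 600 mm3. The Actg2 call was lost without any 600 mm3 mouse and without either vehicle mouse of day 9.

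Rgs5 had levels of -2.37 and -3.44 in sunitinib tumours, against 0.10 and 0.52 in vehicle tumours at 600 mm3, and differed by -3.21 (SE 0.77, adjusted p = 0.106). Cspg4 levels were -3.12 and -2.64, against -1.28 and -1.66 in vehicle tumours (-1.40, adjusted p = 0.197). Neither pair of groups overlapped, which arises easily by chance with 2 mice a group, and neither gene passed. Myh11 levels were -4.43 and -4.72 in sunitinib tumours, against -4.10 and -3.99 in vehicle tumours (-0.53, adjusted p = 0.618). Des moved in the opposite direction to the actins, with levels of 1.14 and 0.50 in sunitinib tumours, against -4.53 and -3.95 in vehicle tumours, and rose by 5.06 (SE 0.38, a 33.4-fold difference, adjusted p = 0.00581). Casq2 rose by 2.75 (adjusted p = 0.0364). Skeletal muscle genes rose beside them, 9 of 18 being called, with a median of 3.64. Endothelial genes fell in 4 of 18 cases, with a median of -1.91 and list levels of -1.02 and -0.87 in sunitinib tumours, against 0.39 and 0.85 in vehicle tumours. Of 8 macrophage genes 2 fell, all 8 having differences below 0 with a median of -1.59, and fibroblast genes had a median of -1.22 with 0 calls.

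**Figure D5:**
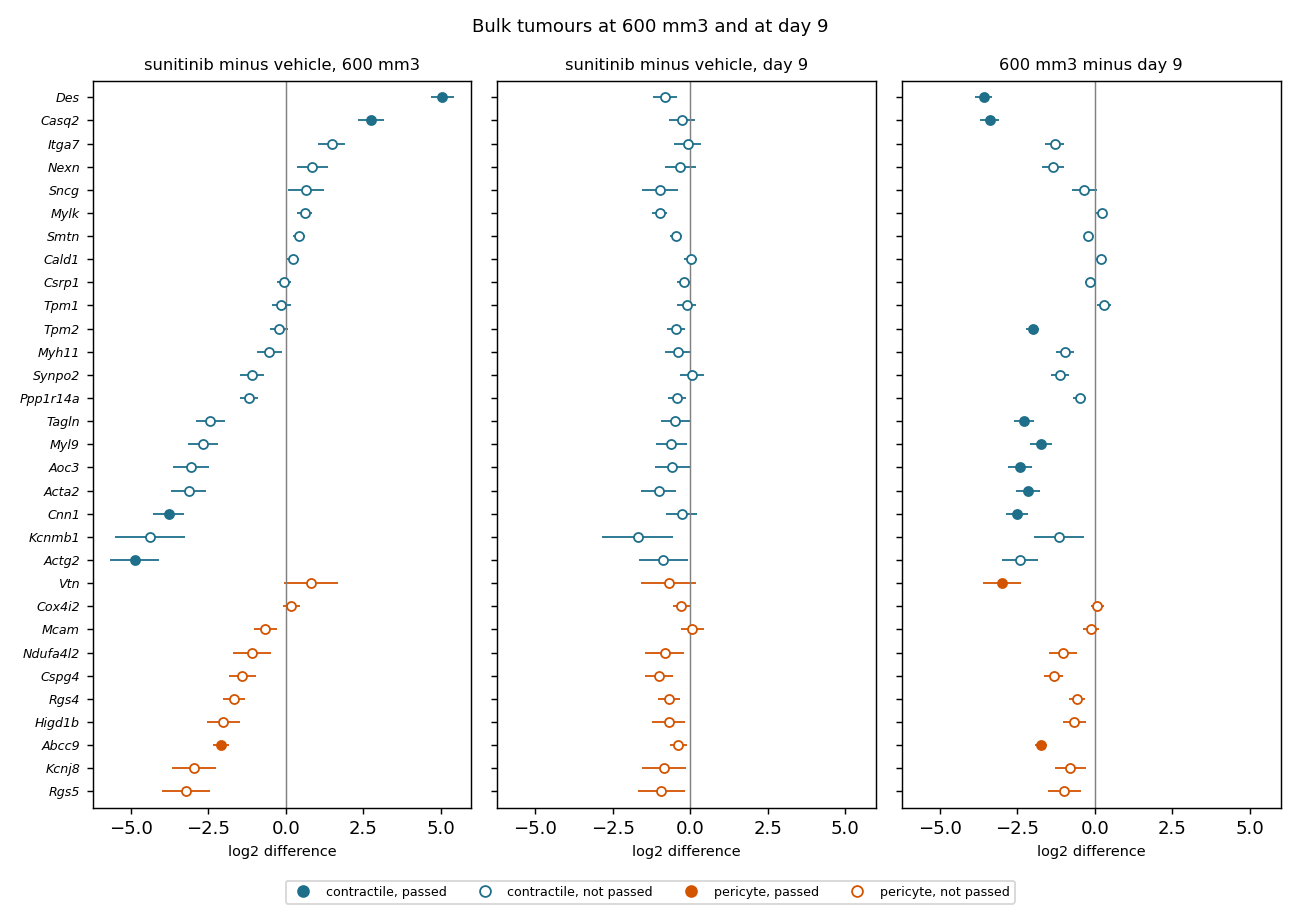
Log2 difference (horizontal axis) of each of the 31 tested genes in bulk RNA of the 8 smaller tumours, with its standard error as the bar, in sunitinib minus vehicle at 600 mm3, the same at day 9, and 600 mm3 minus day 9; filled points passed the test. Des is 5.06 in the first panel and -3.59 in the last, and the day 9 panel has no filled point.

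At day 9 limma called 0 of 17443 genes between sunitinib and vehicle (0%), and 1386 genes had an unadjusted p under 0.05. The difference was above 0 for 3 of the 31 genes and below 0 for 28, while 49.4% of all genes had a difference above 0. These genes share the same arrays and can move together, so the count is not 31 separate results. The 2 sunitinib mice differed from each other: Acta2 was 2.65 and 4.45, against 4.28 and 4.86 in vehicle tumours, and Rgs5 -1.97 and 0.40, against -0.30 and 0.59 in vehicle tumours. Des was 1.57 and 1.38 with sunitinib, against 1.84 and 2.72 with vehicle, without overlap. Cspg4 (-1.85 and -0.84, against -0.80 and 0.13) and Abcc9 (-0.54 and -0.73, against -0.47 and -0.03) did not overlap either. Myh11 did (-3.97 and -3.09, against -3.64 and -2.64). Groups did not overlap for 5 of 21 contractile and 3 of 10 pericyte genes. With 2 mice a group this arises easily by chance, and the share over all genes is not given here, so it is not read as a difference. The group means of Cspg4, Abcc9 and Myh11 were within about a log2 unit of those of vehicle. A further test asked whether the sunitinib difference at 600 mm3 differed from that at day 9. Like the day 9 comparison, it was added after the values had been seen. It called 1 of the 31 genes, Des (5.87, limma adjusted p = 0.0197), and 0.166% of all genes (0.132% higher and 0.0344% lower). The call was lost without any of the 4 mice of 600 mm3 or either sunitinib mouse of day 9. With the 2 stages averaged, sunitinib against vehicle had 0 calls (0%) and 1750 genes at an unadjusted p under 0.05, with Des at 2.13 (adjusted p = 0.1), Abcc9 at -1.24 (adjusted p = 0.124) and Cnn1 at -2.03 (adjusted p = 0.157). The count of 0 among the 31 genes rose in the fit without sunitinib day 9 mouse 2, which leaves 1 mouse in that group. The share of all genes called in that fit is not given here, so the rise is not a result about these genes.

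Other genes of the same cells and of the contractile programme were read beside the 33. A list of 20 other mural genes had 13 higher and 1 lower of 18 tested in EC against bulk, led by the connexin Gja4 (2.20), the guanylate cyclase subunit Gucy1a1 (2.06) and the transcription factor Ebf1 (1.86), with Steap4 (-0.81) as the lower gene. In resistant against vehicle EC, 9 of these 18 fell and 0 rose, among them Gucy1a1 (-1.76) and the ADP-ribosyltransferase family member Art3 (-1.67). In resistant against sensitive EC, 14 of 18 fell. At 600 mm3, with 2 mice a group and in a comparison added after the values had been seen, 2 of 19 were lower with sunitinib and 0 higher. Among all genes 1.15% were called lower there. Pdgfrb, the PDGF receptor of pericytes, was 1 of the 2 (-2.15), and 17 of the 19 did not pass. Tumours of 600 mm3 were lower than day 9 tumours in 2 of 19, Foxf2 (-2.66) and Pdgfrb (-1.19), against 2.77% of all genes.

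Of 15 regulators of the contractile programme, 5 were higher and 3 lower in EC than in bulk. These 8 calls of 15 were close to the share of all genes called, 52% (22.3% higher and 29.7% lower). The SRF partners myocardin (Myocd, 1.87) and Mrtfb (0.73) and the transcription factor Mef2c (1.35) rose, whereas Tead1 (-0.92), the TGF-beta mediator Smad3 (-0.83) and Srf itself (-0.40) were lower. In resistant against vehicle EC, 3 of the 15 regulators were called, against 46.3% of all genes, and the list's median difference was -0.08. Myocd fell by 1.19, Gata6 by 2.02, and the TGF-beta receptor Tgfbr1 rose by 0.41. On resistant EC arrays 12 to 13 of the 15 were well above background, against 15 in vehicle EC. Falls in this list may therefore rest in part on values near background. Of 19 other actin cytoskeleton genes, which most cells use, 3 rose and 2 fell in resistant against vehicle EC. Among all genes 19.2% were called higher and 27.1% lower there. Actb (0.77), Ppp1r12b (0.77) and Tpm3 (0.58) were higher, and the skeletal actin Acta1 (-2.61) and Fhl1 (-1.59) lower. The median of this actin list was 0.05, against -0.71 for the contractile and -1.16 for the pericyte genes.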

How the data were processed

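RNA of 32 samples was hybridised to 1-colour Agilent mouse arrays, and each array is 1 sample. The authors deposited the scanner output; per the file headers its intensity columns are the background-subtracted, detrended processed signal and the median signals, with a flag for spots well above background. The scanner software was Agilent Feature Extraction 10.7.3.1 per the file headers, and version 9.1 per the submitters' processing notes. The authors also deposited processed values of each sample, a signal whose scale was found by setting it against the scanner values: it is linear, is close to the processed signal on the log2 scale, and was used as an alternative. Its medians were 120 to 125.6 over the arrays, and per the series' design text the authors normalised it in R, by a method not given in the sources used here.

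Each value is the log2 of the processed signal minus the array's 75th percentile over the 59305 spots that are not controls. Spots of a probe were averaged, giving 55681 probes. RefSeq accessions in the files named 26582 probes of 20145 genes through the RefSeq table of GRCm38.p6, and the probe with the highest mean over 32 arrays stood for its gene. A gene was tested where it was well above background on at least 4 arrays of a comparison, or 2 for the smaller tumours. Tests were limma 3.58.1 (R 4.3.3, with the data.table package at version 1.17.8), with all arrays of a fraction or stage set in 1 fit, and for EC against bulk the within-mouse differences; p-values were adjusted by Benjamini-Hochberg over all genes tested. A gene at or below background on every array of a group has a bound: the brighter group's mean against, per array, the higher of its own signal and the lowest signal well above background. The number of arrays limits the precision. The steps were tested on simulated shifts. Plots used matplotlib 3.10.9 (Python 3.11.15).

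Mice of different treatment groups share numbers in the labels. EC and bulk samples of 1 mouse were paired by those labels. Among the treatment comparisons, the deviations of same-numbered samples correlated above 0.1 in every pair for resistant against sensitive EC (0.15, 0.26 and 0.13). For sunitinib against vehicle at day 9 the correlation was 0.17. With 2 mice a group the deviations mirror each other, so both pairs give the same value by construction and count as 1. With the number as a block the counts of calls stayed at 24 and 0.

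The members and lists were chosen with earlier results of these data known. In each comparison the text names, among the genes that passed, up to 6 contractile and 4 pericyte genes with the largest differences in each direction, up to 3 genes of each further list, and Acta2, Myh11, Rgs5 and Cspg4 whether or not they passed; where none passed, the 3 genes with the smallest p were named. Alternatives were the normexp correction (on the median signals, offset 50), quantile scaling, the deposited values, other filters on dim probes, the mean of all probes of a gene, the mouse number as a block, slides and leaving out each mouse.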

Additional observations from a re-analysis of the deposited data

Results flagged for a closer look

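In groups of 4 arrays, the highest or lowest value was checked for its distance from the other 3 with Dixon's ratio and its critical value for 4 samples, for 6 genes and 7 lists. Of 78 such groups 10 passed, and chance alone gives about 5% of independent groups. The groups are not independent, since all genes and lists were read on the same arrays and the 6 genes are also in the lists. That share is therefore no measure of how unusual these 10 are. Resistant mouse 2 stood above the other resistant bulk arrays in 5 of these: Des was -0.65, against -5.58 to -4.90 in the others, the contractile list -0.02 against -1.13 to -0.99, the other mural list -1.23 against -2.12 to -2.01, the skeletal muscle list -1.44 against -4.01 to -3.85 and the adipocyte list -1.16 against -5.07 to -4.79. Within the contractile list, Casq2 was -1.27, against -7.77 to -7.67 in the others, while Acta2 was 2.43, against 2.80 to 2.90. In vehicle bulk, mouse 3 stood above the others for Abcc9 (-0.15 against -1.37 to -1.21), the contractile list (0.05 against -0.63 to -0.59) and the endothelial list (1.07 against -2.64 to -2.24). In sensitive bulk, mouse 4 stood above the others for Rgs5 (-0.23 against -2.35 to -2.02). In vehicle EC, mouse 5 stood above the others for the adipocyte list (-0.68 against -2.65 to -2.44).

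The sunitinib difference in Des was 5.06 at 600 mm3 and -0.81 at day 9, and the test of that difference gave 5.87 (limma adjusted p = 0.0197). It rests on 2 mice a group and was added after the values had been seen.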

How the results depend on the processing

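These limits hold for all comparisons with resistant mice: their arrays were on a slide of their own and, except for the bulk array of resistant mouse 2, detected fewer probes, and the dim genes Casq2, Des and Vtn were not well above background on some of them. Leaving out 1 mouse at a time, the count of called genes was 20 to 27 for EC against bulk (23 as reported), 13 to 21 for resistant against vehicle EC (15), 22 to 26 for resistant against sensitive EC (24), 1 to 13 for resistant against vehicle bulk (2), 1 to 11 for resistant against sensitive bulk (3), 4 to 13 for 600 mm3 against day 9 (10), 0 to 11 for sunitinib at 600 mm3 (5), 0 to 8 for sunitinib over both stages (0) and 0 to 1 for the stage difference (1). It was 0 throughout for sensitive against vehicle in either fraction, sunitinib at day 9 and the fraction differences. The mice that moved a count by over 1.5 times are named beside the results. In the comparisons of EC with bulk and of resistant EC none did. For the smaller tumours each of these fits leaves 1 mouse in a group. The share of all genes called is given only for the fits without resistant mouse 2, so the other counts are not results about these genes.

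Other settings moved a count by over 1.5 times in few cases. For EC against bulk, 1 gene was called in resistant mice alone. For resistant against vehicle bulk the count was 4 with normexp, 5 with quantile scaling, 5 with the deposited values, 4 where every array had to be well above background and 1 with the mean of all probes. For resistant against sensitive bulk it was 5 with the deposited values, and for sunitinib at 600 mm3 it was 8 where every array had to be well above background. With the mouse number as a replicate block the stage difference had 0 calls, resistant against vehicle EC 22, and EC against bulk without the block 22. The comparison of 600 mm3 with day 9 was not paired, since those mice share no numbers. The slide as a term was not run for the smaller tumours, which lie on 1 slide.

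Of the named genes, 2 that were called turned direction: Cald1 in EC against bulk of sensitive mice alone (0.05), and Casq2 in resistant against vehicle EC after normexp (0.06). The others that turned were not called: leaving out 1 mouse, Cspg4 in sensitive against vehicle bulk ranged over -0.44 to 0.02 and Acta2 over -0.41 to 0.01 (highest without sensitive mouse 2 and vehicle mouse 3); Myh11 in resistant against vehicle bulk with quantile scaling (0.38), the deposited values (0.18) and with 1 mouse left out (-1.15 without resistant mouse 2 to 0.13 without resistant mouse 4); and sunitinib at day 9, where Myh11 ranged over -0.89 to 0.11 and Rgs5 over -2.11 to 0.25. In the stage difference, Myh11 was 0.16 with normexp and -0.64 to 0.36 with 1 mouse left out, and Cspg4 -0.89 to 0.11. In the resistant effect in EC minus in bulk, Cspg4 was 0.12 with quantile scaling, 0.18 with the deposited values and -0.62 to 0.21 with 1 mouse left out, and Myh11 -1.58 to 0.09, both highest without resistant mouse 2. The cause was not tested.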
